A study of Mus musculus with 9 samples.

Results

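The 32 genes described here carry pyruvate into mitochondria and round the citric acid cycle. They encode the mitochondrial pyruvate carrier, pyruvate dehydrogenase with its kinases and phosphatases, the enzymes of the cycle, the NADP-linked isocitrate dehydrogenases, the malate-aspartate shuttle and the enzymes that feed or drain the cycle. The genes were listed by name, and no measured value enters the rule, but the list was drawn up with earlier results of these data known. All 32 were found by symbol among the 53465 genes of the count table, and all 32 passed the filter on low counts that left 14088 genes to be tested.

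The 9 RNA-seq libraries were made from MAFs, fibroblasts of adult mice. They came from 3 controls, 3 samples of cells exposed to DPI for 24 h and 3 exposed for 72 h. DPI is read as diphenyleneiodonium, which inhibits flavin-dependent enzymes, since the series' title speaks of the flavin cofactor FMN and respiratory complex I. The labels give neither its dose, nor a vehicle, nor the time at which controls were collected, so time in culture and DPI cannot be told apart. No strain, genotype or age is given, and nothing says that the 3 samples in each group were independent cultures. P-values therefore measure only the spread between these samples, which may be technical.

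Pyruvate enters the mitochondrial matrix through a carrier built from Mpc1 and Mpc2 and is turned into acetyl-CoA by pyruvate dehydrogenase, a complex that its kinases switch off and its phosphatases switch on. The cycle oxidises the acetyl group and passes electrons to NADH and succinate dehydrogenase, which feed the respiratory chain. In dividing fibroblasts it also supplies citrate for lipids and, through transaminases, aspartate for nucleotides, and enzymes such as pyruvate carboxylase and glutamate dehydrogenase replace the carbon that leaves.

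Total counts ranged from 15292736 to 17923656 per library. Levels are TMM-normalized CPM, counts scaled to the size of each library. Of 10 fibroblast markers, 8 had a mean of at least 1 CPM, and the summed level of the 10 was 5616 to 5846 CPM in controls, 9982 to 10385 CPM at 24 h and 9275 to 10607 CPM at 72 h. The summed epithelial markers were at 1.38 to 2.17, 1.35 to 1.58 and 6.44 to 6.67 CPM in the same order (6 markers, Krt5 at 0 throughout), and the macrophage markers at 4.03 to 5.19, 3.95 to 4.93 and 2.37 to 3.03 CPM (4 markers, Adgre1 at 0). The 4 endothelial markers summed to 1.10 to 4.10 CPM over the 9 libraries, the 4 skeletal muscle markers to 0.282 to 1.45 CPM with Myog at 0, and the 4 adipocyte markers to 0.185 to 0.914 CPM with Adipoq and Cidec at 0. The part of these shifts in the results below was not tested. In bulk RNA, fewer cells of a type and less RNA per cell cannot be told apart.

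In these genes 1 control library, replicate 2, lay apart. It was the highest of the 3 controls in 26 of the 32 genes, whereas over all genes tested it was the highest in 40.8%. The median deviation of the 32 genes from their mean over all libraries, on a log2 scale, was 0.16 in control 2, -0.03 in control 1 and -0.06 in control 3. It was -0.02, -0.04 and -0.05 at 24 h, and 0.02, 0.01 and 0.04 at 72 h. Ribosomal protein genes took 4.96% of the counts of control 2, against 3.66% and 3.71% in controls 1 and 3. Each result was refitted without this library. No gene called in a comparison turned its sign or moved by over 1.5 times, whereas among genes that were not called 12 of 18 did so at 24 h and 17 of 28 at 72 h, against control.

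**Figure D1:**
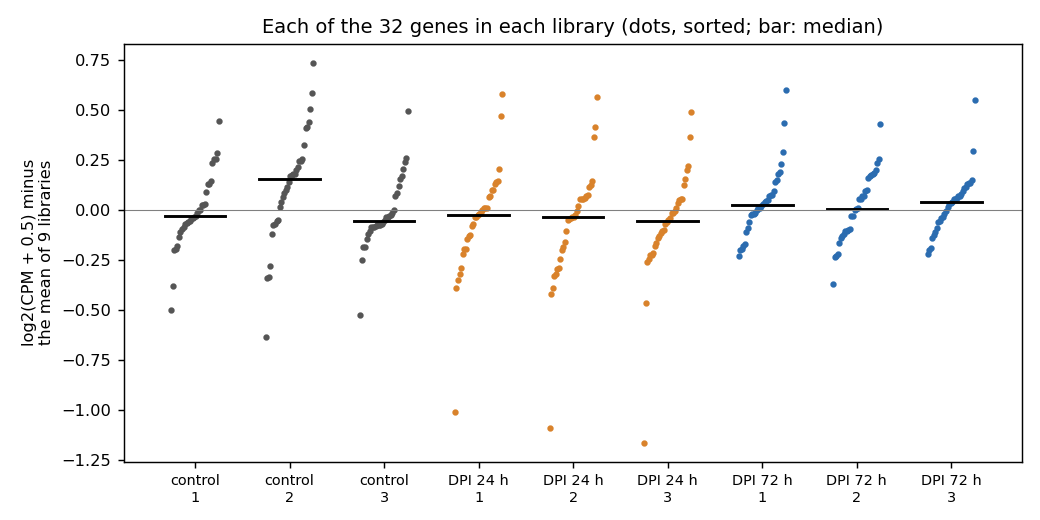
Deviation of each of the 32 genes from its own mean over the 9 libraries, as log2(CPM + 0.5) on the y axis, for each library on the x axis; dots are genes sorted by value and bars are medians. The median of control 2 (0.16) lies above those of the other 8 libraries (-0.06 to 0.04), and the lowest dot at 24 h is Pck2.

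In controls, levels were compared between genes as CPM per kb of annotated exons, a length that pools all isoforms and so understates genes with long rare exons. Mdh2, the malate dehydrogenase of the matrix, was the highest at 93.5 ± 12.8 CPM per kb (SD, n = 3). Pdha1, the catalytic alpha subunit of pyruvate dehydrogenase, followed at 83.6 ± 3.11, a gap smaller than the spread of Mdh2. Mdh1, Got2 and Cs stood at 65.3 ± 8.94, 63.7 ± 0.516 and 59.4 ± 0.448 CPM per kb. Mdh1 did not differ from Got2 or Cs beyond its own spread. The lowest were Pdp2 at 3.46 ± 0.250, Pdk2 at 1.66 ± 0.365 and Me3 at 0.239 ± 0.00928 CPM per kb. The 11 genes of the cycle proper ran from 13.8 (Suclg1) to 93.5 CPM per kb (Mdh2), and the 5 kinase and phosphatase genes of pyruvate dehydrogenase from 1.66 (Pdk2) to 24.0 (Pdk3).

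At 24 h, 14 of the 32 genes passed an adjusted p of 0.05 (edgeR quasi-likelihood test, adjusted over all genes tested). Of these, 5 were higher and 9 lower than in controls. Over all genes tested 24.7% passed, 12.4% higher and 12.3% lower, against 43.8% of the 32. The median log2 change of the 32 genes was -0.03, beside -0.0056 over all genes, with 13 genes above 0 and 19 below. Without control replicate 2 the genes higher numbered 8, beside 15.9% of all genes tested. Without DPI 24 h replicate 3 they numbered 3, beside 8.07%, and Pdhb, Idh3g and Me3 lost their calls as lower.

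At 72 h, 4 of the 32 genes passed against control, 3 higher and 1 lower, which is 12.5% beside 8.56% of all genes tested (4.73% higher and 3.83% lower). The median log2 change was -0.04, beside -0.0050 over all genes. The 4 were Idh1, Pdk3 and Me2, which were higher, and Pcx, which was lower. The count higher was 6 without control replicate 2, beside 7.63% of all genes tested. It was 2 without control replicate 1 or DPI 24 h replicate 1, beside 4.46% and 3.77%. It was 1 without control replicate 3, DPI 24 h replicate 2 or 3, or any DPI 72 h replicate, beside 2.94% to 3.71%. The count lower was 0 without control replicate 3 or DPI 72 h replicate 2 or 3, beside 2.15% to 2.98%. There Pcx lost its call, as given below. Over all genes tested, 1206 were called, 1965 when control replicate 2 was left out, and 782, 736 and 801 when DPI 72 h replicate 1, 2 or 3 was.

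Compared directly, 13 of the 32 genes differed between 72 h and 24 h, 8 higher and 5 lower at 72 h. This is 40.6%, beside 21.3% of all genes tested (10.1% higher and 11.2% lower). Without control replicate 2 there were 12 higher and 6 lower, beside 15.7% and 17.1% of all genes tested. The number of all genes called moved from 3001 to 4729 without control replicate 2 and to 1953 without DPI 24 h replicate 3. All 3 comparisons share libraries with one another, so their counts are not independent. In all, 13 genes passed in no comparison.

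**Figure D2:**
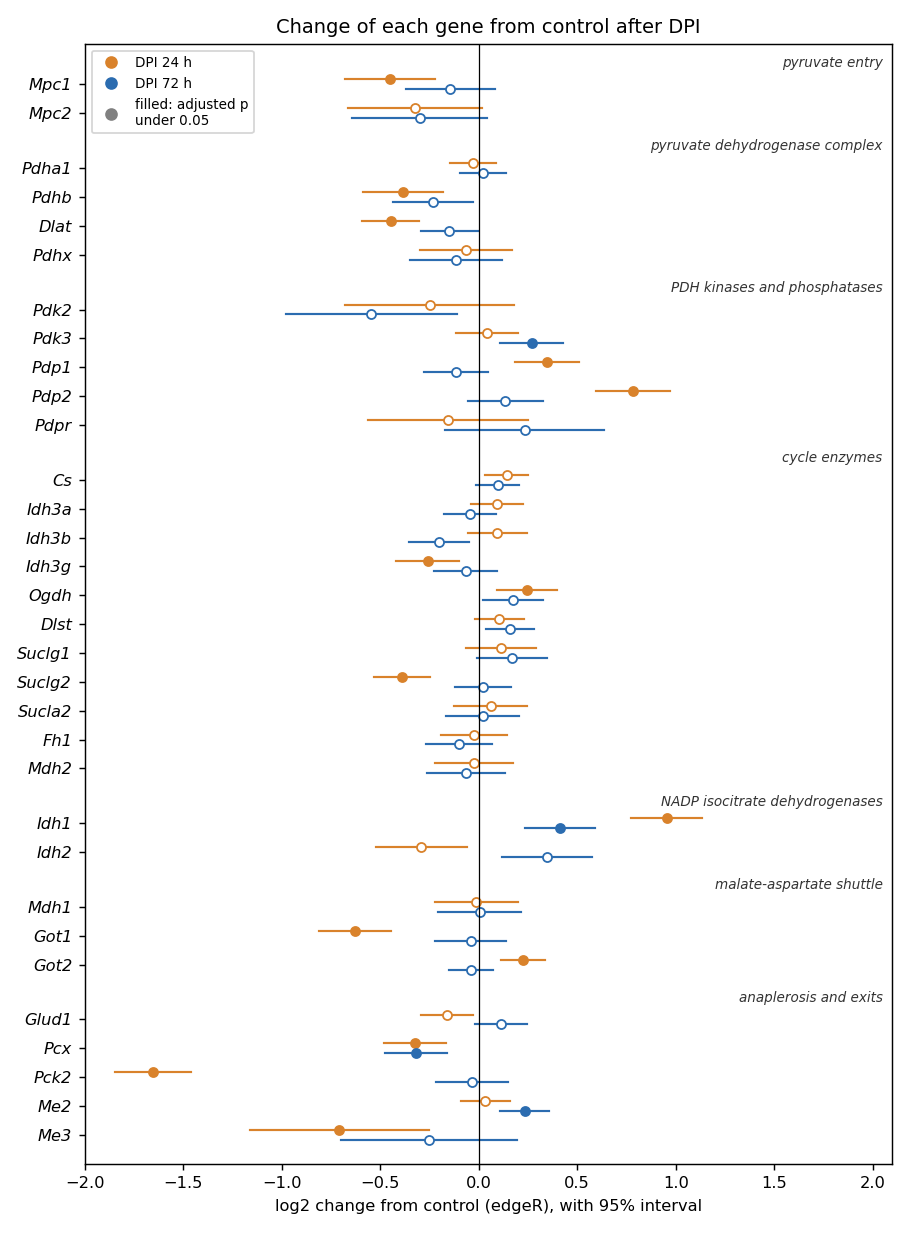
Log2 change from control of each gene (y axis, grouped by role) at 24 h (orange) and 72 h (blue), with 95% intervals from the edgeR fit of 9 libraries; filled circles passed an adjusted p of 0.05. Pck2 lies farthest left at 24 h (-1.65) and Idh1 farthest right (0.95), while at 72 h the values lie between -0.55 and 0.41.

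The largest change was in Pck2, the mitochondrial phosphoenolpyruvate carboxykinase, which turns oxaloacetate into phosphoenolpyruvate (chromosome 14, 55540266 to 55551242, GRCm38). It was at 288, 352 and 298 CPM in controls, at 105, 99.1 and 94.2 CPM at 24 h, and at 320, 285 and 310 CPM at 72 h. All 3 libraries at 24 h lay far below all others, and those at 72 h overlapped the controls. The log2 change at 24 h was -1.65 ± 0.09 (SE, edgeR adjusted p = 4.93e-07), a 3.15-fold fall. From 24 h to 72 h it rose by 1.62 ± 0.09 (adjusted p = 7.17e-07), and the difference from control at 72 h was -0.03, with a 95% interval from -0.22 to 0.15 (0.06 without control replicate 2, and above 0 also without DPI 72 h replicate 2).

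Got1, the cytosolic aspartate aminotransferase, moved the same way on a smaller scale (chromosome 19, 43499752 to 43524605, GRCm38). Its levels were 88.0, 107 and 87.4 CPM in controls, 63.0, 61.3 and 58.2 CPM at 24 h, and 94.6, 91.4 and 88.4 CPM at 72 h. The 24 h libraries were again below all 6 others. The log2 change was -0.63 ± 0.08 at 24 h (SE, edgeR adjusted p = 3.15e-04) and 0.59 ± 0.08 from 24 h to 72 h (adjusted p = 5.19e-04). At 72 h the difference from control was -0.04, with a 95% interval from -0.22 to 0.14 (0.06 without control replicate 2).

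Me3, the mitochondrial NADP-linked malic enzyme, was scarce. It had 3.38, 3.64 and 3.45 CPM in controls, 2.02, 2.13 and 2.26 CPM at 24 h, and 2.67, 3.21 and 2.90 CPM at 72 h. These are 33 to 66 counts per library. All 24 h libraries were the lowest, and the log2 change of -0.71 ± 0.21 passed (SE, edgeR adjusted p = 0.0283). Leaving out control replicate 2 or 3 ended the call (adjusted p = 0.0568 and 0.0576), as did leaving out DPI 24 h replicate 1, 2 or 3 (0.0806, 0.0717 and 0.0602). It was also lost with no filter on low counts (0.161) and when only control and 24 h libraries were fitted (0.0555). At 72 h Me3 did not pass (-0.25 ± 0.20, adjusted p = 0.516).

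Motifs were searched on both strands of the RefSeq promoter windows, which run from 250 bases before to 50 after a start (GRCm38.p6). They were ACGTG, the core of the hypoxia response element, and TGATGNAA, part of the composite element bound by ATF4 with its partners. Also searched were AAGGTCA, the element of estrogen-related receptors, the box CCAAT, and the site of NRF1, a regulator of mitochondrial genes. Windows were found for 29 of the 32 genes. TGATGNAA lay in 3 of their 38 windows, in 3 of the 29 genes, which were Pck2, Got1 and Me3. It lay in 3.97% of all 32851 windows. These genes were among the 9 called lower at 24 h, and any part of the motif in that was not tested. The stretches are shown to place these letters, which are in capitals and read as the reverse complement of the motif, on the strand of each gene.

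Pck2, chr14:55540116-55540215, plus strand, from 150 to 51 bases before the start: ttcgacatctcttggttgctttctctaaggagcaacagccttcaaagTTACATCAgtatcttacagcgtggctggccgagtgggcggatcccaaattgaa

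Got1, chr19:43524656-43524755, minus strand, from 150 to 51 bases before the start: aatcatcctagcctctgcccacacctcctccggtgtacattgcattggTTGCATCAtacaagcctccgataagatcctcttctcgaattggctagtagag

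Me3, chr7:89632773-89632802, plus strand, from 45 to 16 bases before the start: aggctagcgccTTCCATCAggaacccccag

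The match began 103 bases before the RefSeq start in Pck2, 102 in Got1 and 34 in Me3. The Me3 stretch lies inside the span that GENCODE gives the gene (from 89632392 on chromosome 7), which begins farther upstream. In Got1 it directly followed the letters ATTGG, the CCAAT box on the other strand, without sharing a base. A match is a description of the sequence only. Of the 38 windows, ACGTG was in 14 (9 genes, beside 19.6% of all windows) and CCAAT in 24 (18 genes, 37.4%). AAGGTCA was in 2 (Got1 and Ogdh, 4.72%) and the NRF1 site in 0 (0.971%). Genes have up to several windows each, and windows of 1 gene, such as Ogdh, can share a match. No match says only that these letters are not in the windows.

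At the entry of pyruvate, 1 of the 2 carrier genes fell at 24 h, where 12.3% of all genes tested were called lower. Mpc1, a subunit of the pyruvate carrier, was at 43.8, 53.7 and 38.8 CPM in controls, at 33.9, 32.1 and 33.8 CPM at 24 h, and at 40.7, 41.5 and 41.2 CPM at 72 h. All 24 h libraries were below all controls, and the 72 h libraries lay within the control range. The log2 change at 24 h was -0.45 ± 0.10 (SE, edgeR adjusted p = 0.00891), and at 72 h -0.14 ± 0.10 (adjusted p = 0.456), or -0.01 without control replicate 2. From 24 h to 72 h the change of 0.31 did not pass (adjusted p = 0.0585), but did without control replicate 2 (0.00208) or 3 (0.0275). It also passed with only the 24 h and 72 h libraries fitted (0.00152) and with no filter on low counts (0.0149). Its partner Mpc2 had 22.5, 33.4 and 21.2 CPM in controls and 19.4 to 21.8 CPM at 24 h, so the groups overlapped and the log2 change of -0.32 did not pass (95% interval -0.67 to 0.02, adjusted p = 0.158), except with no filter on low counts (0.0465). The Mpc2 difference was -0.09 without control replicate 2 (0.554), against -0.42 and -0.45 without control replicates 1 and 3.

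In the pyruvate dehydrogenase complex, 2 of 4 subunit genes were lower at 24 h, as were 12.3% of all genes tested. So few genes cannot be set against that share. Dlat, the core acetyltransferase, had 60.6, 66.1 and 63.8 CPM in controls, 48.3, 44.3 and 47.2 CPM at 24 h, and 54.5, 59.2 and 58.1 CPM at 72 h. The groups did not overlap, with 72 h between the others. On the log2 scale Dlat changed by -0.45 ± 0.07 at 24 h (SE, edgeR adjusted p = 6.92e-04) and 0.30 ± 0.07 from 24 h to 72 h (0.00863), with a difference of -0.15 ± 0.07 at 72 h against control, which did not pass (0.207). Pdhb, the beta subunit of the decarboxylase, went from 90.2, 113 and 89.8 CPM to 77.6, 75.8 and 71.3 CPM at 24 h. That log2 change of -0.39 ± 0.09 passed (adjusted p = 0.0116), except without DPI 24 h replicate 3 (0.0548). At 72 h Pdhb had 83.1, 78.6 and 88.0 CPM, and neither comparison with 72 h passed, although the one against 24 h did without control replicate 2 (0.0402). Against control the 72 h difference was -0.23, or -0.11 without that library.

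Pdha1, which carries the residues that the kinases phosphorylate, stayed near control. It had 306, 326 and 305 CPM in controls, 304, 304 and 311 CPM at 24 h, and 319, 314 and 318 CPM at 72 h. Its log2 changes were -0.03 and 0.02, with 95% intervals from -0.14 to 0.09 and from -0.09 to 0.14, or 0.00 and 0.05 without control replicate 2. Pdhx, which anchors the flavoprotein subunit of the complex, had 21.6, 24.5 and 21.6 CPM in controls and 18.8 to 24.2 CPM over the treated libraries, and did not pass in any comparison. The alpha subunit and the beta subunit of the same enzyme thus gave different calls at 24 h, a difference that was not itself tested.

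Both catalytic subunits of the phosphatases that reactivate pyruvate dehydrogenase were higher at 24 h, as were 12.4% of all genes tested. Pdp2 was at 18.6, 19.1 and 21.3 CPM in controls, at 33.9, 36.2 and 31.4 CPM at 24 h, and at 21.2, 20.8 and 22.8 CPM at 72 h. The 24 h libraries stood above all others, while the 72 h range overlapped that of the controls. Pdp2 changed on the log2 scale by 0.78 ± 0.09 at 24 h (SE, edgeR adjusted p = 8.38e-05) and -0.65 ± 0.09 from 24 h to 72 h (3.14e-04). Pdp1 was at 26.8, 28.0 and 27.5 CPM, then at 33.5, 37.5 and 33.8 CPM, then at 26.8, 24.5 and 24.8 CPM. It rose by 0.35 ± 0.07 at 24 h (0.00586), fell by 0.46 ± 0.07 from 24 h to 72 h (0.00123) and did not pass at 72 h against control (0.408).

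Pdpr, the regulatory subunit of the phosphatase, had 49.3, 25.9 and 45.6 CPM in controls, so control replicate 2 was far below the others. At 24 h it had 38.2, 34.0 and 36.0 CPM and did not pass (-0.16 ± 0.18, edgeR adjusted p = 0.587). Without control replicate 2 the log2 change was -0.40 and passed (0.00124), and so did the change from 24 h to 72 h of 0.39 (6.07e-04, against 0.169 with that library). At 72 h the difference from control was 0.23, or -0.01 without that library, and neither passed. Pdk3, a kinase of pyruvate dehydrogenase, had 62.4, 66.7 and 55.6 CPM in controls, 64.5, 63.9 and 61.7 CPM at 24 h, and 75.4, 74.8 and 72.3 CPM at 72 h. All 72 h libraries were above all 6 others, by a log2 change of 0.27 ± 0.07 from control (0.0424) and 0.23 ± 0.07 from 24 h (0.0445).

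These Pdk3 calls lay close to the threshold. Against control, the call was kept without control replicate 2 but lost without control replicate 1 (edgeR adjusted p = 0.0811) or 3 (0.124), without DPI 24 h replicates 1, 2 or 3 (0.0739, 0.0788 and 0.0796) and without DPI 72 h replicates 1, 2 or 3 (0.135, 0.135 and 0.0945). It was also lost with upper quartile scaling (0.0840) and with only the control and 72 h libraries fitted (0.126). Against 24 h it was lost without control replicate 1 (0.0551), DPI 24 h replicates 1, 2 or 3 (0.0974, 0.109 and 0.146) and DPI 72 h replicates 1, 2 or 3 (0.125, 0.121 and 0.0878), and with no filter on low counts (0.0634). Pdk2, a further kinase, was at 5.31, 6.40 and 4.09 CPM in controls and 3.83, 3.27 and 3.74 CPM at 72 h, and the log2 change of -0.55 ± 0.20 did not pass (0.126).

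**Figure D3:**
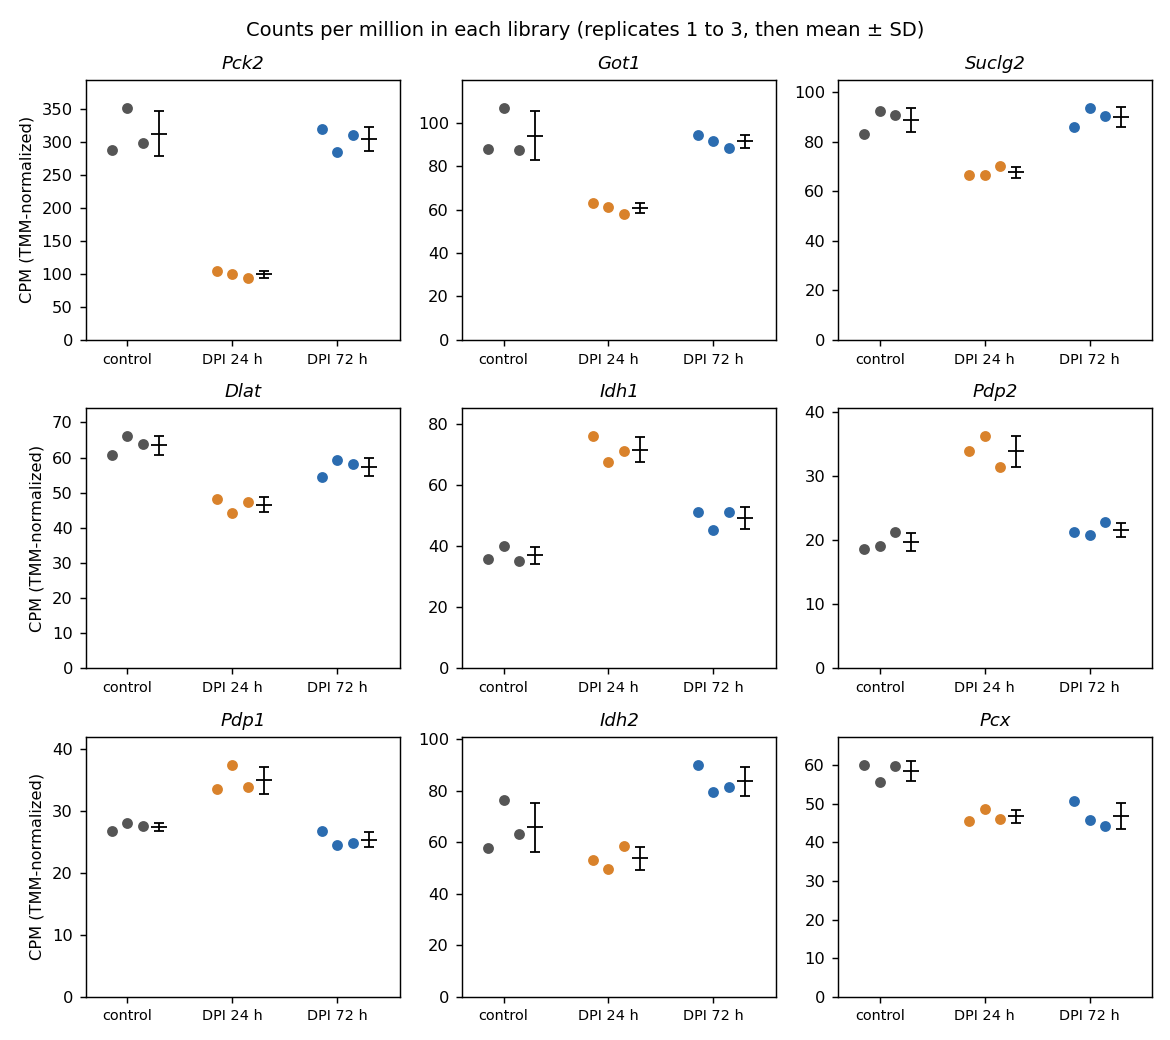
TMM-normalized CPM (y axis, from 0) of 9 of the 32 genes in each library, by group on the x axis; dots are replicates 1 to 3 and the bar beside them is the mean ± SD. Pck2, Got1, Suclg2 and Dlat are lowest at 24 h, Idh1, Pdp2 and Pdp1 are highest at 24 h, Idh2 is highest at 72 h, and Pcx is lower in all 6 treated libraries than in the 3 controls.

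Of the 11 genes of the cycle proper, 1 was higher and 2 were lower at 24 h. This is 27.3%, near the 24.7% of all genes tested. The other 8 had log2 changes from -0.03 to 0.14, with 95% intervals that stayed within -0.22 to 0.29. Cs, the citrate synthase that opens the cycle, was at 340, 345 and 344 CPM in controls, at 381, 379 and 377 CPM at 24 h, and at 376, 364 and 362 CPM at 72 h. All treated libraries were above all controls, by 0.14 ± 0.05 at 24 h, which did not pass (SE, edgeR adjusted p = 0.0576), and by 0.10 ± 0.05 at 72 h (0.280). At 24 h Cs did pass without control replicate 2 (0.0115), in DESeq2 (0.00992) and in limma voom (0.0476).

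Suclg2, the GTP-specific beta subunit of succinyl-CoA synthetase, was the cycle gene with the largest change. It had 83.3, 92.3 and 90.7 CPM in controls, 66.5, 66.5 and 70.3 CPM at 24 h, and 85.9, 93.8 and 90.6 CPM at 72 h. The 24 h libraries were below all others. The log2 change was -0.39 ± 0.06 at 24 h (SE, edgeR adjusted p = 0.00143) and 0.41 ± 0.06 from 24 h to 72 h (0.00111). Sucla2, the ATP-specific beta subunit, had 64.8 to 82.7 CPM in controls and 73.5 to 77.2 CPM at 24 h, a log2 change of 0.06 (95% interval -0.13 to 0.25), and Suclg1, the shared alpha subunit, had one of 0.11, and neither passed. Without control replicate 2, Sucla2 and Suclg1 passed upward at 24 h (0.17, adjusted p = 0.0286, and 0.21, adjusted p = 0.0113), and Suclg1 also at 72 h (0.27, adjusted p = 0.00606).

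The subunits of the NAD-linked isocitrate dehydrogenase gave different calls, and the differences between them were not tested. Idh3g, a regulatory subunit, had 117, 139 and 123 CPM in controls, 107, 102 and 108 CPM at 24 h, and 118, 117 and 127 CPM at 72 h. Its log2 change at 24 h was -0.26 ± 0.07 (SE, edgeR adjusted p = 0.0246). This call was lost without DPI 24 h replicates 1, 2 or 3 (0.0704, 0.0962 and 0.0582) and with only the control and 24 h libraries fitted (0.0527). Idh3b, the other regulatory subunit, had 88.2, 93.8 and 84.6 CPM in controls, 95.5, 94.7 and 94.6 CPM at 24 h, and 73.9, 73.8 and 84.3 CPM at 72 h, with the 72 h libraries lowest. It was lower at 72 h than at 24 h by -0.30 ± 0.07 (0.0112), a call lost without DPI 72 h replicate 1 (0.0521) or 2 (0.0556). The catalytic Idh3a did not pass in any of the 3 comparisons, with log2 changes of 0.09, -0.05 and -0.14. Without control replicate 2, however, both Idh3a (-0.14, 0.0318) and Idh3g (0.19, 0.00670) passed for 72 h against 24 h.

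Ogdh, the decarboxylase of the alpha-ketoglutarate dehydrogenase complex, was higher at 24 h. It had 141, 122 and 140 CPM in controls, 159, 154 and 165 CPM at 24 h, and 156, 154 and 146 CPM at 72 h, and each treated library was above each control. The log2 change was 0.24 ± 0.07 at 24 h (SE, edgeR adjusted p = 0.0242) and 0.18 ± 0.07 at 72 h, which did not pass (0.154) and was 0.11 without control replicate 2. The 24 h call was lost without DPI 24 h replicates 1, 2 or 3 (0.0698, 0.0507 and 0.107) and with only the control and 24 h libraries fitted (0.0572). At 24 h and 72 h the log2 differences from control were 0.11 and 0.16 in its partner Dlst, -0.03 and -0.10 in Fh1, the fumarase, and -0.02 and -0.07 in Mdh2, and none of these passed. Leaving out control replicate 2 gave 0.05 and -0.02 in Fh1 and 0.09 and 0.05 in Mdh2, which turned the direction in Fh1 at 24 h and in Mdh2 at both times.

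At 72 h no gene of the cycle proper passed against control, 0 of 11 by edgeR and likewise 0 by DESeq2 and limma voom. With 8.56% of all genes called, a 0 among so few genes is near the background share. At an unadjusted edgeR p under 0.05 there were 2 higher and 1 lower. The share over all genes at that threshold was not computed, so nothing is drawn from this count. The log2 changes ran from -0.20 (Idh3b) to 0.18 (Ogdh), and the 95% intervals stayed within -0.35 to 0.35. Without control replicate 2, 1 of the 11 passed upward (Suclg1, as above), beside 7.63% of all genes tested.

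Of the NADP-linked isocitrate dehydrogenases, Idh1 was higher at both times. Idh1, the cytosolic and peroxisomal enzyme, was at 35.7, 40.0 and 35.1 CPM in controls, at 76.0, 67.6 and 71.2 CPM at 24 h, and at 51.3, 45.2 and 51.2 CPM at 72 h. The groups did not overlap. Idh1 rose on the log2 scale by 0.95 ± 0.08 at 24 h (SE, edgeR adjusted p = 1.45e-05), a 1.94-fold rise, and 0.41 ± 0.08 at 72 h (0.00898), with a fall of 0.54 ± 0.08 between them (7.13e-04).

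Idh2, the matrix enzyme, had 57.7, 76.3 and 63.3 CPM in controls, 53.1, 49.6 and 58.6 CPM at 24 h, and 90.1, 79.4 and 81.5 CPM at 72 h. All 72 h libraries were the highest, and the 24 h range overlapped that of the controls. From 24 h to 72 h it rose by 0.64 ± 0.11 (SE, edgeR adjusted p = 0.00149). Against control neither -0.29 ± 0.11 at 24 h (0.0674) nor 0.35 ± 0.10 at 72 h (0.0686) passed. The first passed without control replicate 1 (-0.38, 0.0253) but was -0.17 without control replicate 2 (0.136), and the second passed without control replicate 2 (0.47, 0.00159). With no filter on low counts both passed (0.00929 and 0.00213), the first also with upper quartile scaling (0.0461) and the second in DESeq2 (0.0263).

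In the malate-aspartate shuttle, the mitochondrial aminotransferase rose where the cytosolic one fell. Got2 had 308, 309 and 304 CPM in controls, 354, 354 and 368 CPM at 24 h, and 301, 299 and 297 CPM at 72 h. The log2 change was 0.22 ± 0.05 at 24 h (SE, edgeR adjusted p = 0.00791), which did not pass without DPI 24 h replicate 3 (0.0536), and -0.26 ± 0.05 from 24 h to 72 h (0.00363). Mdh1, the cytosolic malate dehydrogenase, had means of 168, 166 and 168 CPM in the order control, 24 h and 72 h, and 95% intervals of its differences from control within -0.22 to 0.21. They were 0.11 and 0.12 without control replicate 2.

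Ratios between isoenzymes were then compared as log2 ratios of CPM per kb in each library. Got1 over Got2 was -0.88, -0.61 and -0.87 in controls, -1.57, -1.60 and -1.74 at 24 h, and -0.74, -0.79 and -0.82 at 72 h. The 24 h values lay below all others, by -0.85 from control, with an exact permutation p of 0.1 (two-sided), the smallest that 3 against 3 libraries can give. Idh1 over Idh2 went from -0.92 ± 0.12 in controls to 0.32 ± 0.12 at 24 h and -0.86 ± 0.08 at 72 h (SD, n = 3; exact permutation p = 0.1 for 24 h against control and 0.5 for 72 h against control). Per length, Idh1 was thus above Idh2 at 24 h and below it in the other libraries.

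Suclg2 over Sucla2 fell from 0.09 ± 0.13 to -0.37 ± 0.06 at 24 h and was 0.08 ± 0.07 at 72 h, again without overlap at 24 h (exact permutation p = 0.1). Mdh1 over Mdh2 differed by 0.01 between 24 h and control, with overlapping values (exact permutation p = 0.9). In this family of 24 tests, 8 pairs in 3 comparisons, the adjusted p was 0.15 for each that reached 0.1. Since 0.1 is the smallest exact permutation p that 3 against 3 libraries can give, no ratio could have passed, whatever its values. The lack of a pass therefore does not show whether a ratio changed. The other pairs with a p of 0.1 at 24 h against control were Pdp2 over Pdp1, Pdk3 over Pdk2 and Me2 over Me3, higher by 0.44, 0.27 and 0.74, while Mpc1 over Mpc2 differed by -0.14 (exact permutation p = 0.3). Pdp2 over Pdp1, Pdk3 over Pdk2 and Me2 over Me3 were also higher at 72 h, by 0.25, 0.80 and 0.49 (exact permutation p = 0.1 each).

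**Figure D4:**
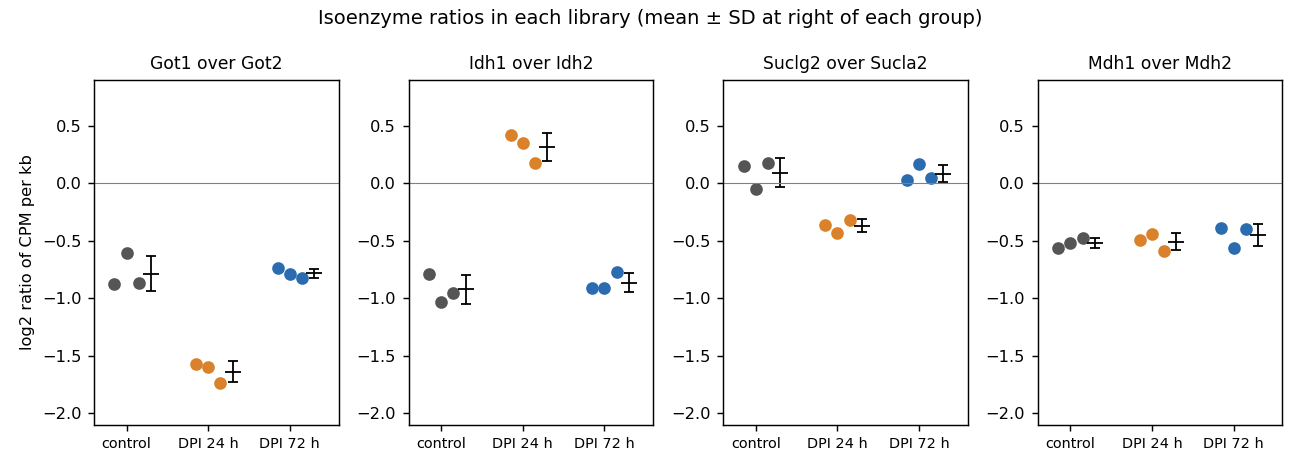
Log2 ratio of CPM per kb between pairs of isoenzymes in each library (dots, replicates 1 to 3) with the mean ± SD of each group; the line at 0 marks equal levels. Got1 over Got2 and Suclg2 over Sucla2 are lowest at 24 h, Idh1 over Idh2 lies above 0 only at 24 h, and Mdh1 over Mdh2 overlaps in all groups.

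Among the genes that feed or drain the cycle, Pcx was lower at both times. This gene encodes pyruvate carboxylase, which makes oxaloacetate from pyruvate. It had 60.2, 55.6 and 59.7 CPM in controls, 45.6, 48.8 and 46.0 CPM at 24 h, and 50.8, 45.7 and 44.2 CPM at 72 h, and every treated library was below every control. The log2 change was -0.32 ± 0.07 at 24 h (SE, edgeR adjusted p = 0.00726) and -0.32 ± 0.07 at 72 h (0.0179), with a difference between them of 0.00 (95% interval -0.15 to 0.16). The 72 h call was lost without control replicate 3 (0.0540) or DPI 72 h replicates 2 or 3 (0.0869 and 0.0888), and with only the control and 72 h libraries fitted (0.0573).

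Glud1, the glutamate dehydrogenase, had 210, 232 and 214 CPM in controls, 189, 201 and 196 CPM at 24 h, and 245, 232 and 233 CPM at 72 h. The 24 h libraries were the lowest and the rise of 0.28 ± 0.06 from 24 h to 72 h passed (SE, edgeR adjusted p = 0.00742). The changes from control, -0.16 and 0.11, did not (0.0717 and 0.292), but the first passed with upper quartile scaling (0.0346) and in DESeq2, and the second without control replicate 2 (0.16, 0.0369). Me2, the NAD-linked mitochondrial malic enzyme, had 81.3, 80.6 and 76.5 CPM in controls, 80.5, 82.2 and 81.1 CPM at 24 h, and 93.8, 96.2 and 90.2 CPM at 72 h. All 72 h libraries were the highest, by 0.23 ± 0.06 from control (0.0252) and 0.20 ± 0.06 from 24 h (0.0260).

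Calls of Me2 also lay close to the threshold. Its log2 change stayed between 0.20 and 0.26 against control, and between 0.18 and 0.23 against 24 h, over the 16 alternatives. Against control the call was lost without control replicate 3 (edgeR adjusted p = 0.0916), DPI 24 h replicates 2 or 3 (0.0522 and 0.0556) and DPI 72 h replicates 1, 2 or 3 (0.0862, 0.117 and 0.0511). It was also lost with no filter (0.0653) and with only the 2 groups fitted (0.0987). Against 24 h it was lost without DPI 24 h replicates 1, 2 or 3 (0.0891, 0.0693 and 0.0831), DPI 72 h replicates 1 or 2 (0.0758 and 0.103) and with no filter (0.101).

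A second list held 32 related genes of the same pathway, of which 29 were tested; Pdk4, Pck1 and Slc25a18 were too low, and Pck1 had 0 counts in all libraries. At 24 h 3 were higher and 5 lower, 27.6% beside 24.7% of all genes, with a median log2 change of -0.02. At 72 h 6 were higher and 3 lower, 31.0% beside 8.56%, with a median of -0.03. Of these 8 and 9 calls, 4 and 4 were kept without any one library, and only those are named with a direction here. At 24 h they were Acly, the ATP citrate lyase, with 0.67 ± 0.06 (SE, edgeR adjusted p = 2.82e-05), and Aco1 with 0.34, which were higher, and D2hgdh with -0.75 and the kinase Pdk1 with -0.52, which were lower.

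At 72 h they were Pdk1 with 1.25 ± 0.07 (SE, edgeR adjusted p = 2.19e-06), Ldha with 0.82, Acly with 0.52 and Ogdhl, a paralog of Ogdh, with -1.43. The other calls at 24 h were in Ogdhl, Me1, Slc25a10 and Slc25a22, with highest adjusted p of 0.127, 0.148, 0.114 and 0.130 when 1 library was left out. At 72 h they were in Aco1, Glul, D2hgdh, Slc25a1 and Slc25a22, with 0.0719, 0.175, 0.159, 0.110 and 0.145. Between 24 h and 72 h, 3 were higher and 2 lower at 72 h, 17.2% beside 21.3% of all genes. Pdk1 (1.77), Ldha (0.89) and Ogdhl (-0.95) kept these calls without any one library, and D2hgdh and Slc25a13 did not (highest adjusted p 0.0898 and 0.0606). Pdk1 was at 57.9, 58.1 and 56.0 CPM in controls, 35.5, 42.8 and 41.7 CPM at 24 h, and 139, 136 and 134 CPM at 72 h, so its 72 h libraries stood above all others and its 24 h libraries below. The genes of flavoproteins that work with the 32, Dld and Sdha, did not pass against control. The log2 difference of Dld was -0.17 at 24 h (95% interval -0.32 to -0.03) and 0.03 at 72 h (-0.12 to 0.17), and that of Sdha 0.03 (-0.09 to 0.15) and 0.12 (-0.00 to 0.23).

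The annotation places a gene on the opposite strand across part of 12 of the 32 genes, among them Pck2, Mpc1, Got2, Pcx and Idh3b, and a gene on the same strand across 5. These overlaps are between whole gene spans, introns included, and whether exons overlap was not examined. Since the sources used here do not state a strand setting, reads from any stretch where exons of both genes overlap cannot be told apart. Mpc1 and Got2 also have a named pseudogene, so their counts are uncertain to that degree.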

How the data were processed

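Libraries were made with an Illumina kit (the labels' protocols). Listed in the submitters' processing notes are Trim Galore, cutadapt, STAR, RSEM, edgeR, limma and the build GRCm38, with neither versions nor roles. Values are the raw counts per gene that the authors deposited; a further deposited table held equal values in 159498 of 159498 cells and was not used. The counts are whole numbers; whether they were rounded from estimates, and the strand setting, is not stated.

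Counts were filtered by group (filterByExpr), which kept 99.9% of counts, scaled by TMM (factors 0.9838 to 1.024), and fitted with edgeR 4.0.16 (R 4.3.3) by the quasi-likelihood test, with 1 mean per group over all 9 libraries. Benjamini-Hochberg adjustment ran over 14088 genes, with a threshold of 0.05. Intervals are 95% and come from the same fit. Exonic lengths are from GENCODE and promoters from RefSeq GRCm38.p6. The 16 alternatives included DESeq2 1.42.0 and limma 3.58.1 (voom).

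Replicates differed beyond counting noise (chi-square per degree of freedom 28.3 and 33.5 for the 2 pairs with control replicate 2, and 3.66 to 7.94 for the other 7 pairs). The 32 genes and all lists were chosen with earlier results of these data known. Full values are given for genes called in any comparison and for Cs, Ogdh, Pdha1, Pcx, Mpc1 and Idh2 in any case; other genes shown in full were chosen after their values were seen.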

Additional observations from a re-analysis of the deposited data

Results flagged for a closer look

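In 13 of the 32 genes the change from control differed between 24 h and 72 h, which is 40.6% beside 21.3% of all genes tested. They are the 13 calls already given above for 72 h against 24 h. The difference was tested as 72 h against 24 h in the edgeR fit, in which the shared controls cancel, with p-values adjusted over all genes tested. On the log2 scale, 72 h minus 24 h, it was 1.62 in Pck2, 0.64 in Idh2, 0.59 in Got1, 0.41 in Suclg2, 0.30 in Dlat, 0.28 in Glud1, 0.23 in Pdk3 and 0.20 in Me2. It was -0.65 in Pdp2, -0.54 in Idh1, -0.46 in Pdp1, -0.30 in Idh3b and -0.26 in Got2. Of these 13, 10 passed in every alternative run, and Pdk3, Idh3b and Me2 did not.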

How the results depend on the processing

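Over 16 alternatives, 9 of 14 calls at 24 h (Mpc1, Dlat, Pdp1, Pdp2, Suclg2, Idh1, Got1, Pcx and Pck2), 1 of 4 at 72 h (Idh1) and 10 of 13 between 24 h and 72 h passed in each. No called change turned its sign. Leaving out 1 library moved the genes higher at 24 h between 3 and 8, beside 8.07% to 15.9% of all genes tested. Those higher at 72 h moved between 1 and 6 (2.94% to 7.63%), and those lower at 72 h between 0 and 1 (2.15% to 6%). The median of 72 h against 24 h moved between 0.036 and 0.056. With only the 2 groups compared, 1 gene was higher and 0 lower at 72 h, beside 3.17% and 2.5% of all genes tested. The genes called over the whole table were then 774 at 72 h (1206 with all libraries) and 4660 for 72 h against 24 h (3001). Upper quartile scaling gave a median of 0.059 for 72 h against 24 h. When 1 library was left out, 8 of 32 genes turned sign at 24 h, 8 at 72 h and 5 for 72 h against 24 h, none of them called in that comparison; without control replicate 2 these were Pdha1, Fh1, Mdh2 and Mdh1 at 24 h and Pdpr, Idh3g, Mdh2, Got1 and Pck2 at 72 h. Examples are Pdha1 at 24 h without control replicate 2 (0.004, other left-out libraries down to -0.052) and at 72 h with upper quartile scaling (-0.004), and Pcx for 72 h against 24 h without DPI 24 h replicate 1 (-0.015) or 3 (-0.003) or DPI 72 h replicate 1 (-0.056), where other left-out libraries gave up to 0.045. The cause was not tested. With the replicate number as a block, 1 gene was higher at 72 h, beside 3.68% of all genes tested. In that fit Me3 at 24 h (0.0548), Pdk3 at 72 h (0.0525) and against 24 h (0.0512), and Me2 at 72 h (0.0560) lost their edgeR calls. Libraries of the same number did not deviate together (r from -0.0925 to 0.00265), and those of different numbers had r from -0.0799 to 0.0943. Deviations from means of only 3 libraries cannot show whether the numbers pair the samples. Counts as low as those of Me3 (33 to 66 per library) limit its precision.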
